A study of Mus musculus with 19 samples.

Results

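The 35 genes described here are transcripts of lymphocytes, read in RNA from mouse hepatocyte preparations. They were chosen by name from the 24537 genes of the deposited table and kept whatever their level. They fall into 5 lists by the cells that carry them. The T cell list has 8 genes, a list shared by T and natural killer (NK) cells has 5, the NK and cytotoxic list has 13 and the B and plasma cell list has 7. A last list holds 2 genes that mark leukocytes or lymphocytes broadly. Polyadenylated RNA came from hepatocytes isolated by a 2-step perfusion of the liver, with 1 library per mouse. All 19 mice were wild-type C57BL/6J males. The young group was 10 mice of 5 months and the old group 9 mice of 24 months. Mice were killed on 2 days 23 days apart, with 5 young and 5 old mice on the first and 5 young and 4 old mice on the second. No treatment, transgene or deletion is given for either group.

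T cells recognise peptide through a receptor whose signal passes through the CD3 chains and the kinases Lck and Zap70. NK cells and CD8 T cells kill with granules that hold perforin and granzymes, while B cells sense antigen through a receptor that signals by Cd79a and Cd79b and mature into antibody-secreting plasma cells. The liver sinusoids hold resident and passing NK, T and B cells, and hepatocyte preparations made by perfusion can carry some of them along. Hepatocytes themselves are not known to use antigen receptors or granzymes. In bulk RNA such as this, fewer cells of a type and less RNA per cell cannot be told apart.

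Libraries held 17381439 to 20287628 counts over genes. The hepatocyte label was checked against 10 hepatocyte genes, including Alb and Apoa1, which together made up 99279 to 204626 CPM in each library. CPM are counts divided by a library's effective size, its total times a TMM factor that allows for differences in RNA composition. After removal of genes with fewer than 10 counts over all 19 libraries, 15511 genes were tested for age with edgeR's quasi-likelihood test and cull day as a covariate. An adjusted p under 0.05 over all genes is the threshold for calling a gene changed. Of all genes tested, 2440 (15.7%) were higher in old mice and 2181 (14.1%) were lower. With library totals in place of TMM scaling the split was 2757 higher and 1179 lower. Old mouse 1187 of the first cull day stood apart from the other libraries in the lymphocyte genes, and young mice 1184, 1186 and 1188 had the 3 lowest hepatocyte sums. The results below are therefore also given without mouse 1187, and once without those 3 young mice.

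Upstream sequences are shown for 4 of the genes that the values below turn on, chosen after their values were seen. Gzmb separated the ages without overlap, Gzma was the gene most raised in mouse 1187, Jchain was the most counted B lineage gene and Zap70 was the gene that did not follow the others. RefSeq gave a start site on GRCm38.p6 for 24 of the 35 genes. Each line is the 250 bases before that start, 5′ to 3′ on the gene's own strand. Capitals mark a match to any of 5 short motifs, searched on both strands. The windows are chr14:56262335-56262584 (minus strand) for Gzmb, chr13:113100982-113101231 (minus strand) for Gzma, chr5:88527898-88528147 (minus strand) for Jchain and chr1:36764265-36764514 (plus strand) for Zap70.
Gzmb: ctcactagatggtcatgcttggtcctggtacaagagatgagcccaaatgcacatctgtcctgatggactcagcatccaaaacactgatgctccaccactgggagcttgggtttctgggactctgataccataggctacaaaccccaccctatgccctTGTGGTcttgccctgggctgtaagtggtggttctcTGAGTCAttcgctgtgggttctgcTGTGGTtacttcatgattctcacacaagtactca
Gzma: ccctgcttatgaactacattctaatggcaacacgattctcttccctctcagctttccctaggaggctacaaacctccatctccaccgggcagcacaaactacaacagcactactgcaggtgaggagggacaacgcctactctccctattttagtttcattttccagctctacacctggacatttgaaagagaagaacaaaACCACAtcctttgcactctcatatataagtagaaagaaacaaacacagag
Jchain: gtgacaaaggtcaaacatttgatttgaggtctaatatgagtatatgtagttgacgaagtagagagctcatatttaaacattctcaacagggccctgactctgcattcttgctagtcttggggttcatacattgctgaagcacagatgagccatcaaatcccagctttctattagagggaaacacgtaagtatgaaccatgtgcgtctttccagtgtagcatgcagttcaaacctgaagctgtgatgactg
Zap70: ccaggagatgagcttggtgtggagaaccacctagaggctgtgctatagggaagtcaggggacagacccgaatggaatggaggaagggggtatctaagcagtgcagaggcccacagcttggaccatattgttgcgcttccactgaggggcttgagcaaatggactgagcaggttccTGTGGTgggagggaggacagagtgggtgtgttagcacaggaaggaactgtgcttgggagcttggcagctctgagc

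The core bound by RUNX factors, TGTGGT, matched 93 and 34 bases before the Gzmb start, 50 bases before that of Gzma (on the opposite strand) and 75 bases before that of Zap70. It was present in 11 of the 24 windows, among them those of Lck, Cxcr3, Cxcr6, Nkg7, Prf1, Klrk1, Ncr1 and Xcl1, and in 14.05% of 32841 RefSeq windows of the same length. The AP-1 site TGANTCA was found in 1 of the 24 (Gzmb, 58 bases before the start) and in 6.75% of all windows. The EBF core CCCNNGGG was in 2 (Prf1 and Cd27) and in 11.82% of all windows. No match in these windows was found for the octamer ATGCAAAT (1.6% of all windows) or the ETS core CCGGAAGT (2.88%). Zap70, Gzma and Gzmb thus hold the RUNX core, although their values by age differed as described below. The window of a further granzyme, Gzmk, held no match to it. In another annotation, GENCODE, Zap70 starts further upstream, at base 36761798, so the window shown lies inside that gene model. Of the bases in the Cxcr3 window, 122 lie in GENCODE exons. The start sites of Cd3g and Cd3d lie 1355 bases apart and point away from each other.

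All 35 lymphocyte genes reached the filter of 10 counts, but at low levels: 33 averaged under 1 CPM in young mice, and 20 had no young library above 3 counts. Under the edgeR test 26 of the 35 rose with age and 0 fell, where 15.7% of all genes were called higher. The 26 were 7 of 8 T cell genes, 4 of 5 genes shared by T and NK cells, 8 of 13 NK and cytotoxic genes, 5 of 7 B and plasma cell genes and both broad genes. The median log2 fold change, old over young, was 2.67 over the 35 genes and 0.01 over all genes. Without old mouse 1187, 15 of 35 were called higher (11.1% of all genes), with a median of 1.65 against 0.00173 for all genes. Those 15 were 4 T cell, 0 shared, 6 NK and cytotoxic and 5 B and plasma cell genes, and 0 of the 2 broad genes.

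A gene with fewer than 10 young counts reached the filter only through its old libraries, which favours a higher level there. This applies to 20 of the 35. They were Cd3d, Cd3g, Cd8a, Cd8b1, Cd5, Cd6, Cd2, Gzma, Gzmb, Gzmk, Nkg7, Prf1, Klrd1, Ncr1, Eomes, Xcl1, Cd79a, Ms4a1, Pou2af1 and Cd27. The other 15 reached 10 counts in the young libraries alone. Of these, 9 rose, where 15.0% of the 14459 genes with that many young counts were higher. Without mouse 1187 the number was 4 of 15, against 10.9% of such genes. The 4 were Ccl5, Il2rb, Cd79b and Jchain.

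**Figure D1:**
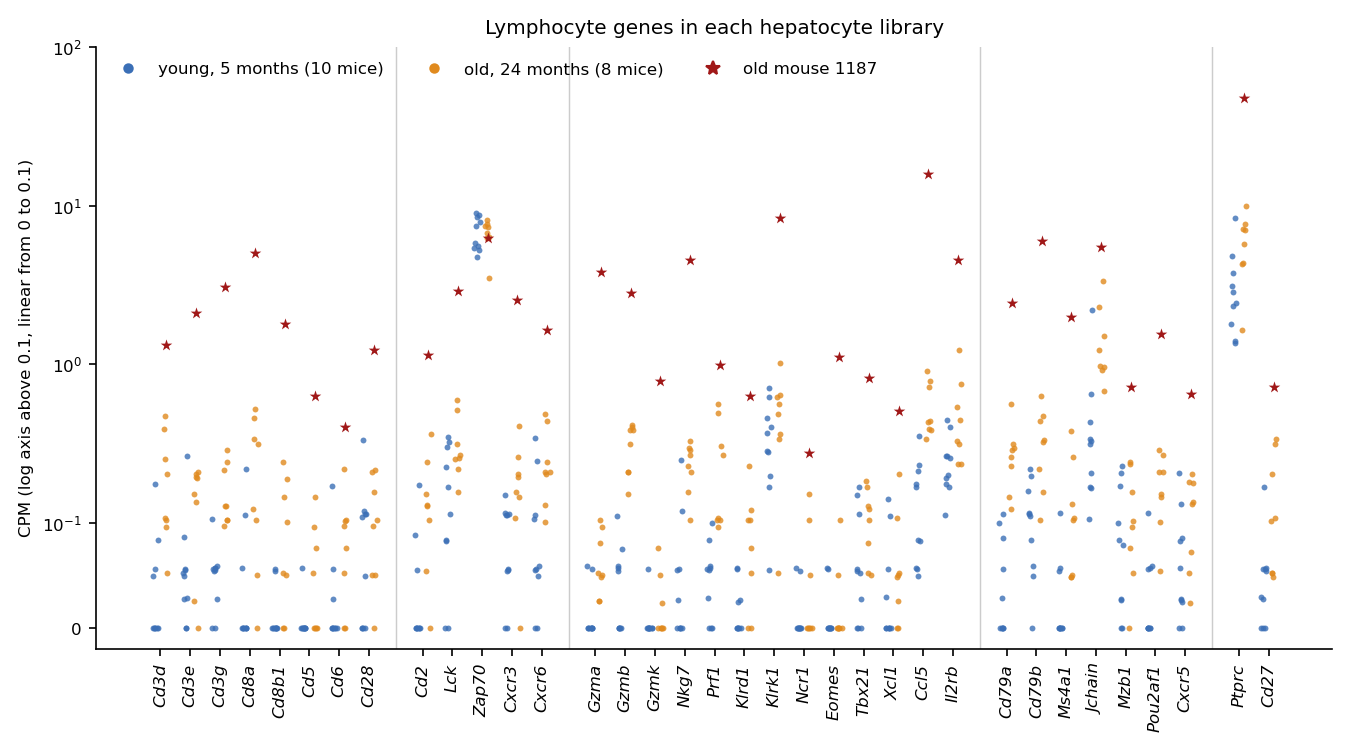
Each point is the level of 1 gene in 1 library in CPM, on an axis that is logarithmic above 0.1 and linear below it, with vertical lines between the 5 lists. Old mouse 1187 (star) is the highest library for 34 of the 35 genes; Zap70 sits at the same level in both ages.

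The 8 T cell genes encode receptor chains and coreceptors. Their summed level was 0.138 to 0.616 CPM in young mice (median 0.297), 0.544 to 1.79 CPM in 8 old mice and 15.5 CPM in old mouse 1187. Thus 8 of 9 old libraries lay above every young one, the exception being mouse 1189. At 55.5 counts in all over 10 young libraries, most single values were a few reads. Of the 8 genes, only Cd3e and Cd28 had 10 or more young counts.

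Of the CD3 signalling chains, Cd3g (chromosome 9, 44969572 to 44980431) had 0 to 2 counts (median 1) in the young libraries. Its 8 other old libraries had 2 to 5.5 counts (median 2.5), and mouse 1187 had 73. On the log2 scale Cd3g rose by 3.13 (SE 0.781, edgeR adjusted p = 0.00692) and by 1.70 without mouse 1187 (edgeR adjusted p = 0.0167). In CPM, 6 of 9 old libraries lay above every young one. Cd3d (chromosome 9, 44981786 to 44987052), which lies head to head with it, had 0 to 3 counts (median 0) in young mice and 1 to 9 counts (median 3) in old mice, with 31.5 in mouse 1187. The rise of Cd3d was 2.95 (SE 0.741, edgeR adjusted p = 0.00721), or 2.24 without that mouse (edgeR adjusted p = 0.0100), and 5 of 9 old libraries lay above every young one. Cd3e (chromosome 9, 44998743 to 45009590) had 0 to 4.5 counts (median 1) in young mice, 0 to 4 counts (median 3.5) in the other 8 old mice and 50 in mouse 1187. Mouse 1187 was the 1 old library above the highest young one. Cd3e rose by 2.45 with it (SE 0.865, edgeR adjusted p = 0.0386) but did not pass without it, at 1.13 (edgeR adjusted p = 0.194). In 11 of the 19 fits that left out 1 library, 9 of them young, Cd3e did not pass (edgeR adjusted p from just above 0.05 to 0.191, with the low-count filter reapplied in each fit).

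Cd8a and Cd8b1 encode the chains of the coreceptor of cytotoxic T cells and are neighbours on chromosome 6. Cd8a (chromosome 6, 71373427 to 71379171) was the most counted gene of the list, with 0 to 4 counts (median 0) in young mice, 0 to 10 counts (median 4.5) in 8 old mice and 119.5 in mouse 1187. It rose by 3.92 (SE 1.01, edgeR adjusted p = 0.00856) and by 2.36 without mouse 1187 (edgeR adjusted p = 0.0282). No young library exceeded 4 counts, and 5 of 9 old libraries did. Cd8b1 (chromosome 6, 71322812 to 71337451) had 2 counts in all over the 10 young libraries, 0 to 5 counts (median 1.5) in each of the 8 old libraries and 42.5 in mouse 1187. Its ratio of total counts, old over young and scaled for depth, was 29.0 (95% counting interval 7.68 to 245), and 8.93 (95% counting interval 2.09 to 80.3) without mouse 1187. Both fits called it higher (edgeR adjusted p = 0.00729 and 0.0209). These and all such intervals cover counting error only.

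The scavenger-type receptors Cd5 and Cd6, which temper receptor signalling, were read at still fewer counts. Cd5 (chromosome 19, 10718143 to 10738974) had 1 count over the young libraries, 0 to 3 counts (median 0.5) in the 8 old libraries and 15 in mouse 1187. Its count ratio was 22.5 (95% counting interval 3.65 to 929) (edgeR adjusted p = 0.0186) and 8.65 (95% counting interval 1.14 to 386) without that mouse (edgeR adjusted p = 0.0576). Cd6 (chromosome 19, 10789339 to 10830058) had 0 to 3 counts (median 0) in young mice, 0 to 4.5 counts (median 1.75) in 8 old mice and 9.5 in mouse 1187. It rose by 2.24 (SE 0.816, edgeR adjusted p = 0.0437), was 1.65 without mouse 1187 (edgeR adjusted p = 0.107), and 2 of 9 old libraries lay above every young one. Leaving out any of 13 libraries, 8 young and 5 old, took the adjusted p of Cd6 to 0.0519 or more (at most 0.105). The costimulatory receptor Cd28 did not pass, at 1.26 (SE 0.755, edgeR adjusted p = 0.214), with 6 counts in young mouse 1186 and 0 to 4 in the old mice other than 1187.

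**Figure D2:**
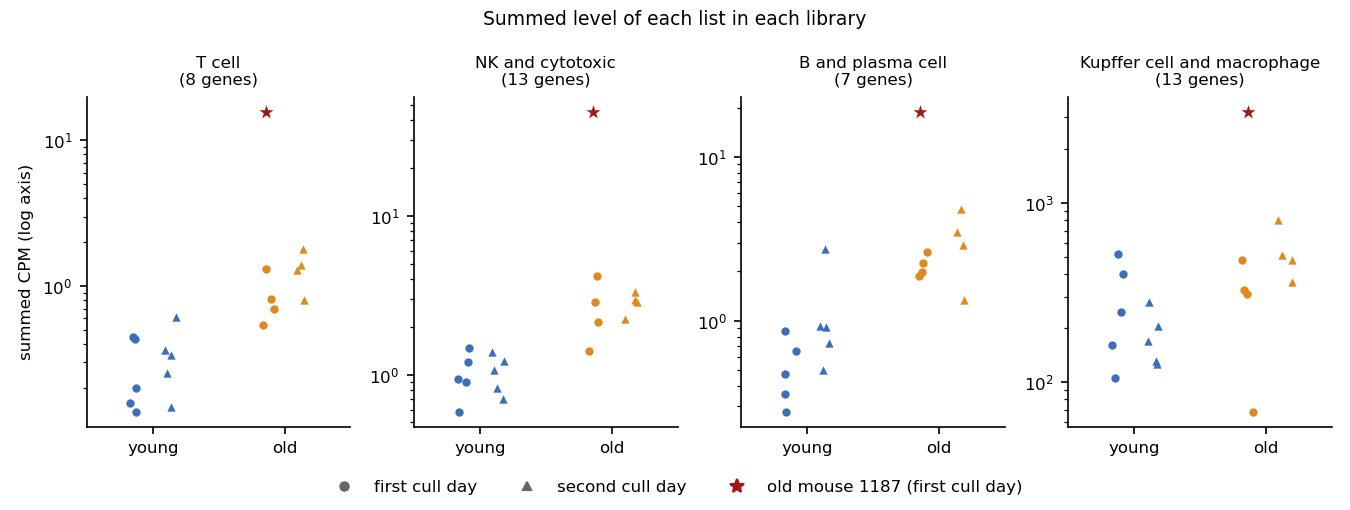
Each point is the summed CPM of a list in 1 library, on log axes that differ between panels, with circles for the first cull day and triangles for the second. The T cell sum of 8 of 9 old mice exceeds the highest young sum of 0.616 CPM. For the macrophage sums, old mice 1187 and 1242 lie above the young range and old mouse 1183 below it. The other old mice lie within it.

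Among the genes shared by T and NK cells, 4 rose and 1, Zap70, did not, and 0 of the 4 calls held without mouse 1187. Cd2, an adhesion receptor, (chromosome 3, 101275908 to 101287939) had 0 to 3 counts (median 0) in young mice, 0 to 7 counts (median 2.5) in 8 old mice and 27 in mouse 1187. The rise of Cd2 was 2.67 (SE 0.814, edgeR adjusted p = 0.0193), or 1.86 without mouse 1187 (edgeR adjusted p = 0.0698). The chemokine receptor Cxcr3 (chromosome X, 101731535 to 101734147), which responds to interferon-induced ligands, had 0 to 3 counts (median 1.5) in young mice, 0 to 8 counts (median 3.5) in 8 old mice and 60 in mouse 1187. It rose by 2.27 (SE 0.734, edgeR adjusted p = 0.0257) and stood at 1.19 without that mouse (edgeR adjusted p = 0.0958), with 6 of 9 old libraries above all young ones. Cxcr6 (chromosome 9, 123806477 to 123811754), a receptor known for holding lymphocytes in the liver, lies within Fyco1 on the other strand. It had 0 to 6 counts (median 1) in young mice, 2 to 9 counts (median 4) in 8 old mice and 39 in mouse 1187. Cxcr6 rose by 1.89 (SE 0.618, edgeR adjusted p = 0.0273), was 1.27 without mouse 1187 (edgeR adjusted p = 0.0728) and also missed the threshold without young mouse 1188 or old mouse 1240 (edgeR adjusted p = 0.0517 and 0.0520).

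Lck and Zap70 encode the kinases that act one after the other below the T cell receptor. Lck (chromosome 4, 129548344 to 129573641) had 0 to 6 counts (median 2.5) in young mice, 3 to 11.5 counts (median 5.25) in 8 old mice and 69 in mouse 1187. It rose by 1.69 (SE 0.608, edgeR adjusted p = 0.0420) and did not pass without that mouse, at 0.90 (edgeR adjusted p = 0.160), or in 8 other fits that left out 1 library (edgeR adjusted p 0.0502 to 0.0805). Zap70 (chromosome 1, 36764515 to 36782820) had 82 to 169.5 counts (median 119.25) in young mice, 67 to 168 counts (median 140.25) in 8 old mice and 147.5 in mouse 1187. Over both cull days the ages overlapped, at 6.80 ± 1.62 CPM (SD, n = 10) in the young and 6.60 ± 1.36 CPM (SD, n = 9) in the old. On the first cull day Zap70 was at 4.71 to 5.84 CPM in young and 3.47 to 7.28 CPM in old mice. On the second it was at 7.40 to 8.92 CPM in young and 6.75 to 8.13 CPM in old mice. Its log2 fold change on each day alone was 0.134 and -0.107 (edgeR adjusted p = 0.661 and 0.555). The difference in level between the days was not tested. Over all 19 libraries the log2 fold change of Zap70 was 0.01 (SE 0.107, edgeR adjusted p = 0.973; exact two-sided permutation p = 0.802), a value whose sign depended on the scaling and on the libraries used.

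Per kilobase of the counted transcript, the young level of Zap70 was 3.04 CPM and that of Lck 0.0779 CPM. Mouse 1187, at 15.5 CPM of the T cell genes, had 2.90 CPM of Lck, while the other old mice had 0.156 to 0.597 CPM, but its Zap70 level was 0.883 of their median. The annotation places a transcribed pseudogene, Gm18828, on the opposite strand within Zap70. The strand setting of the counting is not given in the sources used here, so the source of the Zap70 reads was not tested.

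**Figure D3:**
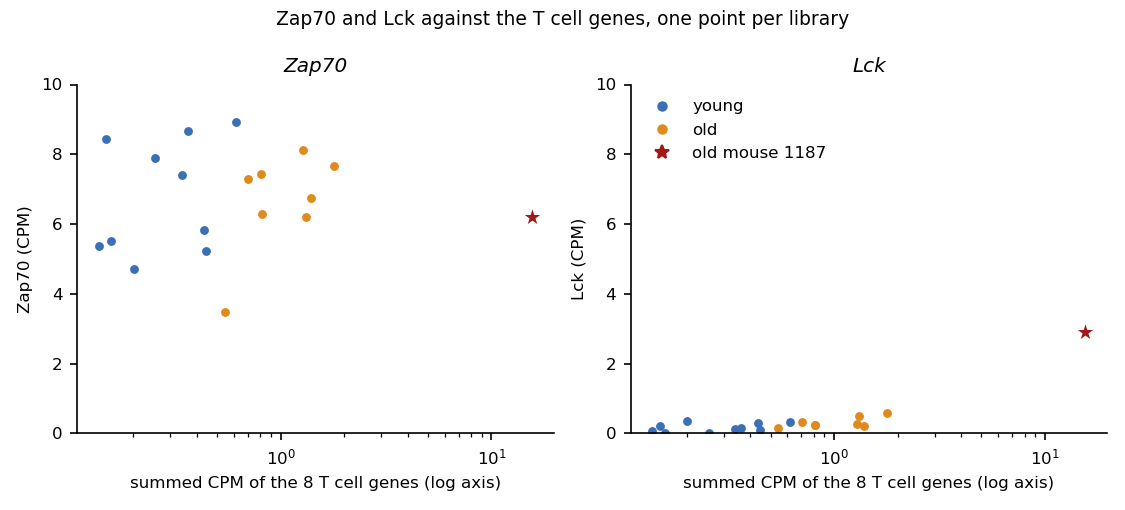
Points are libraries, with the summed CPM of the 8 T cell genes on a log axis and the CPM of Zap70 (left) or Lck (right) on a linear axis. Lck is at 2.90 CPM in mouse 1187 and at most 0.597 CPM elsewhere, whereas Zap70 lies between 3.47 and 8.92 CPM whatever the level of the T cell genes.

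The 13 NK and cytotoxic genes cover granule proteins, receptors, transcription factors and chemokines. They summed to 0.584 to 1.47 CPM in young mice (median 0.999), 1.40 to 4.17 CPM in 8 old mice and 44.9 CPM in mouse 1187. The lowest old library, mouse 1183, lay within the young range and the other 8 lay above it.

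Of the granule genes, Gzmb (chromosome 14, 56258836 to 56262334), a granzyme that triggers death of target cells, separated the ages. It had 0 to 2 counts (median 0.5) in young mice, 3 to 8.5 counts (median 6.75) in 8 old mice and 67 in mouse 1187. Every old library lay above every young one, with or without mouse 1187. The same held for 0.864% of all genes tested and for 2 of the 35, Gzmb and Cd79a. Both are among the 20 that reached the filter only through their old libraries, so nothing is read from that count. Gzmb rose by 3.61 (SE 0.681, edgeR adjusted p = 0.00103) and by 2.82 without mouse 1187 (edgeR adjusted p = 0.000469). Prf1 (chromosome 10, 61297836 to 61304263), the pore-forming perforin, had 0 to 2 counts (median 1) in young mice, 2 to 11 counts (median 3.75) in 8 old mice and 23.5 in mouse 1187. It rose by 2.79 (SE 0.620, edgeR adjusted p = 0.00333), by 2.41 without that mouse (edgeR adjusted p = 0.00492), and 8 of 9 old libraries exceeded all young ones. The granule membrane protein Nkg7 (chromosome 7, 43437138 to 43438246) had 0 to 5 counts (median 0.25) in young mice, 2 to 6.5 counts (median 5) in 8 old mice and 107.5 in mouse 1187. Its rise was 3.46 (SE 0.927, edgeR adjusted p = 0.0105), or 2.16 without mouse 1187 (edgeR adjusted p = 0.00799).

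The granzymes Gzma and Gzmk, neighbours on chromosome 13, rested on mouse 1187. Gzma (chromosome 13, 113093827 to 113100981) had 2 counts over the young libraries, 0.5 to 2 counts (median 1) in the 8 old libraries and 90.5 in mouse 1187, which was 74.2 times the median of the other old mice in CPM. The count ratio of Gzma was 50.1 (95% counting interval 13.5 to 419) (edgeR adjusted p = 0.0110) and 5.48 (95% counting interval 1.15 to 51.7) without mouse 1187 (edgeR adjusted p = 0.0791). Gzmk (chromosome 13, 113171874 to 113180897) had 1 count over the young libraries, 3 over the 8 old libraries and 18.5 in mouse 1187. Its ratio was 21.5 (95% counting interval 3.47 to 889) with mouse 1187 (edgeR adjusted p = 0.0483) and 3.46 (95% counting interval 0.278 to 182) without it (edgeR adjusted p = 0.411). Gzmk also missed the threshold in 12 fits that left out another library, 10 of them young (edgeR adjusted p 0.0513 to 0.0848).

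Of the NK receptor genes, Klrd1 and Il2rb passed the threshold, while Klrk1 and Ncr1 did not. The log2 fold changes of Il2rb and Klrk1 were close, and no difference between the receptors was tested. Klrd1 (chromosome 6, 129591811 to 129598775), the CD94 chain of NK receptors, had 3 counts over the young libraries, 0 to 4.5 counts (median 1.75) in the 8 old libraries and 15 in mouse 1187. Its count ratio was 9.51 (95% counting interval 2.94 to 48.8) (edgeR adjusted p = 0.00818) and 5.19 (95% counting interval 1.44 to 28.3) without mouse 1187 (edgeR adjusted p = 0.0276), with 6 of 9 old libraries above all young ones. Il2rb (chromosome 15, 78480549 to 78495066), the receptor chain for interleukins 2 and 15, had 2 to 8 counts (median 4) in young mice, 4.5 to 24 counts (median 7.5) in 8 old mice and 108.5 in mouse 1187. It rose by 1.74 (SE 0.511, edgeR adjusted p = 0.0162), and by 0.99 without that mouse (edgeR adjusted p = 0.0491). Klrk1, the activating receptor NKG2D, was the most counted NK receptor but did not pass, at 1.76 (SE 0.690, edgeR adjusted p = 0.0614), although it passed when old mouse 1183 or 1189 was left out (edgeR adjusted p = 0.0285 and 0.0439). Its young libraries had 1 to 13 counts (median 6), its 8 old libraries 1 to 21 counts (median 10) and mouse 1187 197.5. The NK-defining receptor Ncr1 had 2 counts over the young libraries and 12.5 over the old ones, 6.5 of them in mouse 1187, and was at 0 in 5 of 9 old libraries. It did not pass (edgeR adjusted p = 0.0781) but did so without old mouse 1183 or 1185 (edgeR adjusted p = 0.0358 and 0.0403).

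The chemokine Ccl5 (chromosome 11, 83525779 to 83530518), released by cytotoxic and memory T cells and NK cells, had 1 to 6.5 counts (median 2.25) in young mice, 6.5 to 17.5 counts (median 8.75) in 8 old mice and 375.5 in mouse 1187. It rose by 3.53 (SE 0.793, edgeR adjusted p = 0.00392), by 1.84 without that mouse (edgeR adjusted p = 0.000723), and 8 of 9 old libraries lay above all young ones. Ccl5 was thus called although its young libraries held up to 6.5 counts. The chemokine Xcl1 and the transcription factors Tbx21 and Eomes did not pass (edgeR adjusted p = 0.143, 0.0697 and 0.0763). Eomes had 26.5 of its 29.5 old counts in mouse 1187 and was at 0 in 6 old libraries, and it passed without old mouse 1183, young mouse 1237 or young mouse 1239 (edgeR adjusted p 0.0424 to 0.0459).

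**Figure D4:**
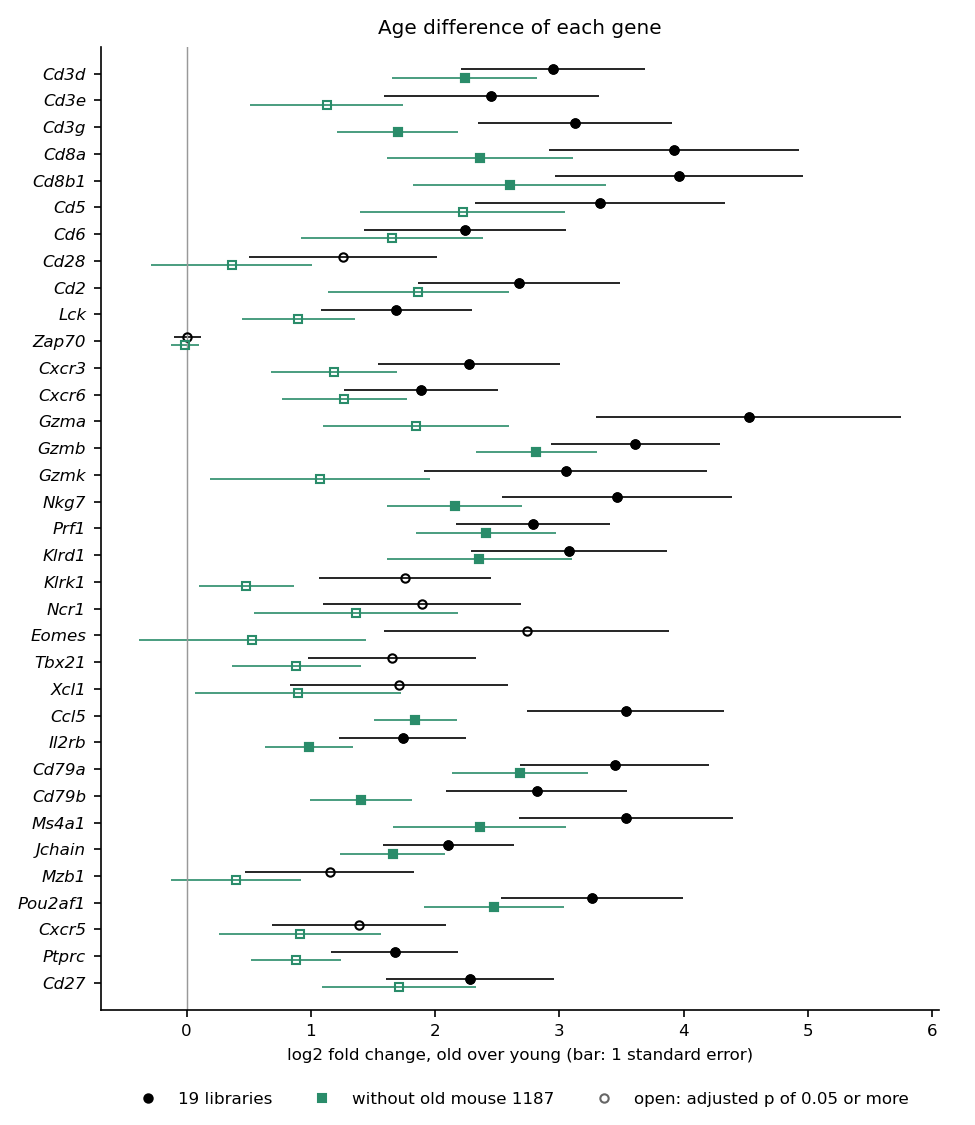
Points are log2 fold changes, old over young, with bars of 1 standard error, for all 19 libraries (black circles) and without old mouse 1187 (green squares); filled points passed an adjusted p of 0.05. Of the 26 filled circles, 15 have a filled square, and Zap70 lies at 0.01.

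The 7 B and plasma cell genes summed to 0.278 to 2.74 CPM in young mice (median 0.693), 1.34 to 4.77 CPM in 8 old mice and 18.7 CPM in mouse 1187. Young mouse 1239 reached 2.74 CPM through Jchain, and 4 of 9 old libraries lay above it. Without Jchain, 6 genes summed to 0.111 to 0.623 CPM in young and 0.672 to 13.3 CPM in old mice. The 5 calls in this list all held without mouse 1187. Of them, Cd79a, Ms4a1 and Pou2af1 are among the 20 genes that had fewer than 10 young counts.

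Cd79a and Cd79b encode the signalling chains of the B cell receptor. Cd79a (chromosome 7, 24897511 to 24902197) had 0 to 2 counts (median 0.25) in young mice, 2.5 to 11 counts (median 5.25) in 8 old mice and 57.5 in mouse 1187, so that no old library overlapped the young range. With 7 young counts in all, it too is among the 20 that reached the filter only through their old libraries. It rose by 3.44 (SE 0.759, edgeR adjusted p = 0.00313) and by 2.68 without mouse 1187 (edgeR adjusted p = 0.00186). Cd79b (chromosome 11, 106311341 to 106314562) had 0 to 4 counts (median 2) in young mice, 2 to 12.5 counts (median 6.25) in 8 old mice and 141.5 in mouse 1187. The rise of Cd79b was 2.82 (SE 0.727, edgeR adjusted p = 0.00859), or 1.40 without that mouse (edgeR adjusted p = 0.0193), and 6 of 9 old libraries exceeded all young ones. Ms4a1 (chromosome 19, 11250603 to 11266151), which encodes the B cell surface protein CD20 and overlaps an antisense transcript, had 0 to 2 counts (median 0) in young mice, 1 to 7.5 counts (median 2) in 8 old mice and 47 in mouse 1187. It rose by 3.54 (SE 0.861, edgeR adjusted p = 0.00590) and by 2.36 without mouse 1187 (edgeR adjusted p = 0.0196).

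Pou2af1 (chromosome 9, 51213690 to 51240079), a coactivator that B cells need for germinal centres, had 0 to 2 counts (median 0) in young mice, 1 to 5.5 counts (median 3.5) in 8 old mice and 37 in mouse 1187. It rose by 3.26 (SE 0.733, edgeR adjusted p = 0.00353) and by 2.47 without that mouse (edgeR adjusted p = 0.00431), with 7 of 9 old libraries above all young ones. Jchain (chromosome 5, 88519809 to 88527897), the joining chain of secreted IgA and IgM and a plasma cell product, had 2 to 39 counts (median 5.75) in young mice, where mouse 1239 held the highest value. Old mice had 14 to 64 counts (median 21.25) in 8 libraries and 129.5 in mouse 1187, and 3 of 9 lay above mouse 1239. Jchain rose by 2.11 (SE 0.526, edgeR adjusted p = 0.00730) and by 1.66 without mouse 1187 (edgeR adjusted p = 0.00903). Mzb1, a chaperone of antibody-secreting cells, did not pass, at 1.15 (SE 0.678, edgeR adjusted p = 0.206). The follicle-homing receptor Cxcr5 also did not pass, at 1.39 (SE 0.701, edgeR adjusted p = 0.139), except without young mouse 1235 (edgeR adjusted p = 0.0429). Both overlapped between ages except in mouse 1187 and, for Mzb1, old mice 1240 and 1242.

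Ptprc (chromosome 1, 138062859 to 138175305), the leukocyte phosphatase CD45 that macrophages carry too, had 25 to 154 counts (median 50.25) in young mice, 31.5 to 191.5 counts (median 129) in 8 old mice and 1137 in mouse 1187. It rose by 1.67 (SE 0.510, edgeR adjusted p = 0.0212) but was 0.88 without that mouse (edgeR adjusted p = 0.0868). Young mouse 1184, at 154 counts, lay above 7 of the 9 old libraries. Cd27 (chromosome 6, 125232622 to 125237027), a costimulatory receptor of T, NK and memory B cells whose locus overlaps other annotated genes, had 0 to 3 counts (median 0.75) in young mice, 1 to 6.5 counts (median 2) in 8 old mice and 17 in mouse 1187. The rise of Cd27 was 2.28 (SE 0.675, edgeR adjusted p = 0.0170), or 1.71 without mouse 1187 (edgeR adjusted p = 0.0523).

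Old mouse 1187 was the highest of the 19 libraries for 34 of the 35 genes, against 22.4% of all genes tested. Its CPM was a median of 9.53 times the median of the other old mice over the 32 genes where that median was above 0, from 0.883 (Zap70) to 74.2 (Gzma). Over all genes tested the same ratio had a median of 1.00. Some lists of other blood and liver cells were also high in that library, while the red cell and cholangiocyte lists were mixed. The 13 Kupffer cell and macrophage genes summed to 3198 CPM there, where the other old mice had 68.3 to 805 CPM and the young 105 to 518 CPM, and 11 of the 13 were highest in it. Platelet genes summed to 59.1 CPM (1.37 to 3.34 CPM in the other old mice) and neutrophil genes to 19.6 CPM (0.832 to 7.59 CPM). Red cell genes summed to 79.5 CPM, 0.853 of the median of the other old mice, although 5 of 7 were highest in mouse 1187. Alas2 alone averaged 84.1 CPM in the old mice. Cholangiocyte genes summed to 2.14 times the median of the other old mice, although 0 of 6 were highest in mouse 1187. Stellate cell genes summed to 2.25 times the median of the other old mice, and 10 of 10 were highest in mouse 1187. The hepatocyte genes summed to 117723 CPM, 0.693 of the median of the other old mice. The part of these cells in the age differences was not tested.

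All 35 genes together summed to 8.52 to 17.4 CPM in young mice, 13.6 to 28.9 CPM in 8 old mice and 142 CPM in mouse 1187, and 7 of the 9 old libraries lay above all young ones. The make-up of the lymphocyte counts was described over 33 genes, leaving out Zap70 and Ptprc after their values were seen. Together the 33 held 470 counts over the young libraries, 1186 over 8 old libraries and 2095 in mouse 1187. Their summed level was 1.63 to 4.07 CPM in young mice, 5.18 to 11.3 CPM in 8 old mice and 88.0 CPM in mouse 1187. NK and cytotoxic genes took 39.7% of these counts in young mice (exact 95% interval 35.2% to 44.3%), 36.6% in 8 old mice (33.8% to 39.4%) and 51.0% in mouse 1187 (48.8% to 53.1%). B and plasma cell genes took 32.4% (28.2% to 36.9%), 35.1% (32.4% to 37.9%) and 21.2% (19.5% to 23.1%). T cell genes took 11.8% (9.03% to 15.1%), 14.4% (12.4% to 16.5%) and 17.7% (16.1% to 19.4%). These intervals leave out the spread between mice, which was wide. In single mice the NK and cytotoxic share ran from 17.4% to 54.8% in the young and from 26.2% to 51.6% in the other 8 old mice. The B and plasma cell share ran from 16.7% to 67.4% in the young and from 23.8% to 45.3% in those old mice. The NK and cytotoxic share of mouse 1187 was thus within the range of the other old mice, with mouse 1181 at 51.6%, and its B and plasma cell share was below theirs but within the young range.

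**Figure D5:**
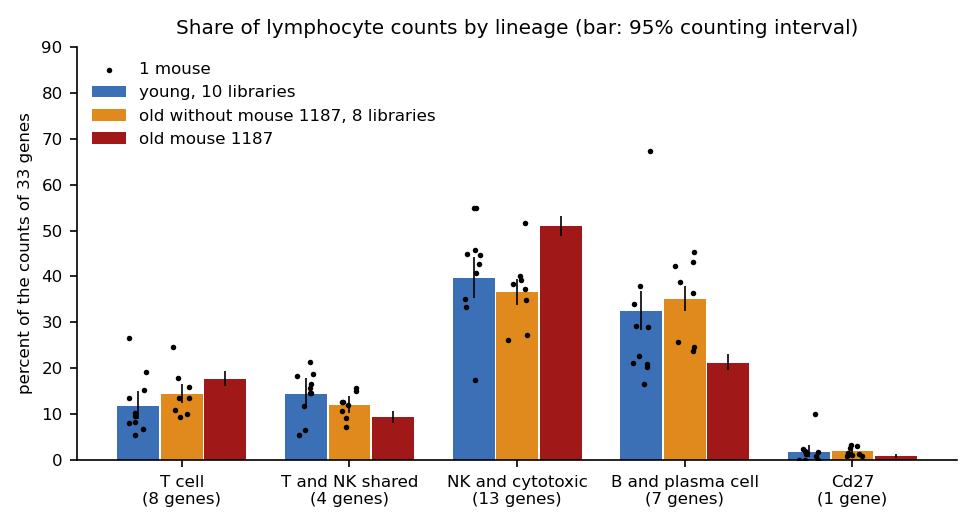
Bars are the percent of counts over 33 lymphocyte genes that fell to each list, in pooled young libraries, pooled old libraries other than mouse 1187, and mouse 1187; lines are exact 95% intervals for counting error only and black points are single mice. The NK and cytotoxic share is 51.0% in mouse 1187, inside the 26.2% to 51.6% of the other old mice.

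On the first cull day alone, which includes mouse 1187, 1 of the 35 genes (Jchain) was called higher (1.29% of all genes) and their median log2 fold change was 3.20. On the second day alone, 8 of the 28 genes that reached the filter were higher (11.5% of all genes), with a median of 1.62. The 8 were Cd3d, Cd3g, Gzmb, Ccl5, Cd79b, Pou2af1, Ptprc and Cd27. No lymphocyte gene differed in its age effect between the days by an interaction term (0 of 35 in edgeR, lowest adjusted p = 0.769), and 4 did so at an unadjusted p under 0.05, a cut that 6.24% of all genes passed. Without young mice 1184, 1186 and 1188, 12 of the 35 rose (12.3% of all genes).

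Other tests gave fewer calls. An exact two-sided permutation of mean CPM within cull days, adjusted over all genes, called 21 of the 35 higher (14.2% of all genes), and all 21 were among the 26. The 5 others were Cd3e, Cd5, Cd6, Lck and Gzmk. DESeq2 called 16 (15.7% of all genes) and gave no adjusted p for 10 because its Cook's distance check for single extreme libraries withheld it. The stricter filter of filterByExpr left 3 of the 35 genes, Zap70, Jchain and Ptprc, of which 2 rose (16.3% of all genes).

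Genes that act with these were read from a wider list of ligands and receptors. Of 17 tested, 10 rose (15.7% of all genes) and 0 fell, and 4 rose without mouse 1187 (11.1% of all genes). The smallest adjusted p values were those of Raet1e and Raet1d, cell-surface ligands of the NKG2D receptor encoded by Klrk1. The size of both changes was near the median of 1.21 over the 17 genes. In young mice Raet1e averaged 12.9 ± 4.52 CPM (SD, n = 10), against 30.1 ± 9.88 CPM (SD, n = 9) in the old. On the log2 scale it rose by 1.21 (SE 0.208, edgeR adjusted p = 0.000583), with no overlap between the ages. The averages of Raet1d were 29.3 ± 14.4 CPM (SD, n = 10) and 68.7 ± 22.9 CPM (SD, n = 9), a log2 rise of 1.23 (SE 0.267, edgeR adjusted p = 0.00328). Both lie on chromosome 10 in a cluster of near-identical Raet1 genes, and the spans of Raet1a, Raet1b and Raet1c overlap each of them on the same strand, so how reads were divided between these genes is uncertain. Both held without mouse 1187 (1.22 and 1.24, edgeR adjusted p = 0.00109 and 0.00613), whose levels of 29.0 and 65.0 CPM were within those of the other old mice. Ccr3, a chemokine receptor that binds Ccl5, averaged 0.0140 ± 0.0238 CPM (SD, n = 10) in the young and 3.23 ± 9.39 CPM (SD, n = 9) in the old. It was called higher (edgeR adjusted p = 0.00885) but not without mouse 1187 (edgeR adjusted p = 0.0700). Its young level was below that of Klrd1 (0.0165 CPM, 3 young counts), so it reached the filter only through its old libraries and no fold change is given.

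Further genes of the same lineages were tested beside the 35. Over all genes tested, 15.7% were higher and 14.1% lower, and 11.1% were higher without mouse 1187. Of 26 other T cell genes tested, 10 rose and 1, Trat1, fell. Without mouse 1187, 4 rose and 0 fell. Thy1, a T cell surface protein, rose by 2.69 (SE 0.731, edgeR adjusted p = 0.0108), or by 1.94 without that mouse (edgeR adjusted p = 0.0181). Trat1 fell by 6.31 on the log2 scale in edgeR (adjusted p = 0.0144), while the exact permutation of its CPM gave p = 0.167. Its young reads lay in mice 1184, 1186 and 1188, which had the 3 lowest hepatocyte sums, with up to 88.5 counts. The other 7 young libraries were at 0 and the 9 old libraries held 1 count in all. Of 15 other NK genes 3 rose, Ccl3, Il18r1 and Ccl4, and 0 of them passed without mouse 1187. That NK count and the T cell count without mouse 1187 were near the shares over all genes, so neither is read as a result. Of 17 other B and plasma cell genes 10 rose and 5 did so without that mouse. Among the 5 were Blnk, a B cell receptor adaptor (1.42, SE 0.250, edgeR adjusted p = 0.000577), Prdm1, a factor of plasma cells (2.09, SE 0.469, edgeR adjusted p = 0.00353) and Blk, a B cell kinase (2.61, SE 0.626, edgeR adjusted p = 0.00531). In young mice Blnk averaged 0.866 CPM, where Cd79a averaged 0.0382 CPM, and the source of the Blnk reads was not tested. Blk, Ccl3, Il18r1 and Ccl4 averaged 0.0386, 0.0222, 0.0195 and 0.0418 CPM in young mice, below Cd27 (0.0448 CPM, 8 young counts). These genes thus also reached the filter only through their old libraries, which favours a higher level there.

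Markers of some other cells of the liver also rose with age. Against 15.7% of all genes (11.1% without mouse 1187), the numbers higher were 10 of 13 Kupffer cell and macrophage genes (2 without that mouse), 7 of 10 sinusoidal endothelial genes (6), 10 of 10 stellate cell genes (8), 5 of 8 dendritic cell genes (3), 4 of 5 platelet genes (1) and 2 of 9 neutrophil genes (0). Cholangiocyte genes gave 0 of 6 in either direction. Red cell genes gave 3 higher and 1 lower of 5, and hepatocyte genes 2 higher and 6 lower of 10. Whether the lymphocyte genes rose more than the other non-hepatocyte genes was not tested.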

How the data were processed

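The authors deposited 1 table of estimated counts per gene, in steps of 0.5, with 29.2% of values not whole. Per the file headers it was made by HOMER's analyzeRepeats on mm10, counting reads in exons of RefSeq transcripts, 1 transcript per gene, without normalization. STAR, HOMER and GRCm38/mm10 are named in the submitters' processing notes. Versions, the strand setting and the handling of reads with several matches are not given in the sources used here.

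Counts were rounded to whole numbers (ties to even) for the count tests, which had been planned for whole counts. Genes with at least 10 counts over the 19 libraries were fitted in edgeR 4.0.16 (R 4.3.3) with TMM scaling, a robust quasi-likelihood fit, age and cull day, and Benjamini-Hochberg adjustment over all genes. The age-blind filter was used because filterByExpr left 3 of the 35 genes. Standard errors are the absolute log2 fold change over the square root of F. Fits without mouse 1187 in the report kept the same genes. CPM used the deposited counts with TMM scaling, and log2 CPM for outlier checks used a prior count of 2. The exact permutation test relabelled ages within cull days in all 31752 ways on mean CPM. For genes with 3 or fewer young counts, the ratio of total counts, with exact Clopper-Pearson limits, replaces the fold change.

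Described in full were genes past the threshold and the most counted gene of each list; of other lists, at most the 3 with the smallest p among those called. The genes and lists were chosen with earlier results of these data known, so their counts are descriptions. Each library is 1 mouse per the labels, and p-values measure the spread between mice. Total counts per library ranged from 17381439 to 20287628, and their number limits the precision for genes at a few counts. Other scalings, filters, DESeq2 1.42.0, limma-voom (limma 3.58.1), each cull day alone and leaving out each mouse were tried. The permutation and edgeR steps were tested on simulated data. Python 3.11.15 with pandas 2.3.3, scipy 1.17.1 and matplotlib 3.10.9 made the tables and figures. A gene that the naming rule would give is not reported here.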

Additional observations from a re-analysis of the deposited data

Results flagged for a closer look

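Old mouse 1187 lay apart from the other 8 old mice, by the gap to its nearest neighbour on log2 CPM, for 22 of the 35 genes. Chance flags about 1 in 20 groups of independent, continuous values, and 70 groups were checked. Many groups here held mostly 0 counts, and the same mice recur over all genes. The number of flags is therefore not read against that rate. The levels of mouse 1187 in CPM were 2.10 for Cd3e, 3.07 for Cd3g, 5.02 for Cd8a, 1.79 for Cd8b1, 0.630 for Cd5 and 1.22 for Cd28 among T cell genes. They were 2.90 for Lck, 2.52 for Cxcr3 and 1.64 for Cxcr6 among genes shared by T and NK cells. Among NK and cytotoxic genes they were 3.80 for Gzma, 2.82 for Gzmb, 0.777 for Gzmk, 4.52 for Nkg7, 8.30 for Klrk1, 1.11 for Eomes, 0.819 for Tbx21 and 15.8 for Ccl5. For the B lineage they were 2.42 for Cd79a, 5.95 for Cd79b, 1.97 for Ms4a1, 1.55 for Pou2af1 and 0.651 for Cxcr5.

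Single young libraries stood apart for 7 genes. Young mouse 1239 had 2.20 CPM of Jchain and 0.170 CPM of Cd6. Young mouse 1186 had 0.334 CPM of Cd28 and 0.167 CPM of Cd27. Young mouse 1235 had 0.264 CPM of Cd3e, and young mice 1237 and 1243 held the only young reads of Cd5 (0.0566 CPM) and Gzmk (0.0559 CPM). Old mouse 1189 was low for Zap70, at 3.47 CPM.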

How the results depend on the processing

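The count of 26 of the 35 genes higher in old mice was 16 with DESeq2, 2 with filterByExpr (3 genes left to test), 1 on the first cull day alone, 8 on the second, and 12 without young mice 1184, 1186 and 1188. Leaving out 1 mouse gave 15 to 29, the lowest without old mouse 1187, where keeping the genes of the 19-library filter also gave 15. It was 26 with DESeq2's size factors or library totals, 28 without the cull day term, 25 without a filter, with unrounded counts or with the totals in the column names, 22 with limma-voom and 24 with DESeq2 when its Cook's distance check was off. The count of genes lower was 0 of 35 throughout. Over all genes, 4621 calls became 390 with first-day mice alone and 2652 with second-day mice alone, with fewer mice in each. The interaction of age and cull day gave 0 genes in edgeR (968 at an unadjusted p under 0.05, of 15511) and 19 in DESeq2, none of them a lymphocyte gene; the cause was not tested. No paired analysis was possible because mouse numbers are not shared between ages.

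Among single genes, Zap70 (0.0060) changed sign, to -0.0438 with limma-voom, -0.0430 without the cull day term, -0.1075 on the second cull day, -0.0020 without young mice 1184, 1186 and 1188 and -0.0132 without mouse 1187 with the genes of the 19-library filter. Without 1 mouse it ranged from -0.0451 to 0.0681, passing the threshold in none. On the second cull day Mzb1 was -0.0084 and the summed difference of the T and NK shared list, which Zap70 dominates, was -0.0350 CPM against 1.03 over both days. No other fold change of the 35 reversed. At a median of 0 to 2.5 young counts for most of the genes, the size of a ratio is imprecise at this depth.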

Other observations

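Several partner and lineage genes outside the naming rule were chosen after their values were seen. Cxcl16, the ligand of Cxcr6, averaged 4.89 ± 1.45 CPM in the young (SD, n = 10), 11.3 ± 9.53 CPM in the old (SD, n = 9), and rose by 1.19 (SE 0.329, edgeR adjusted p = 0.0127) and by 0.74 without mouse 1187 (edgeR adjusted p = 0.0143). Cxcl9 and Cxcl10, ligands of Cxcr3, did not pass, at 0.45 and 0.98 (edgeR adjusted p = 0.50 and 0.215), and mouse 1187 had 120 and 32.0 CPM of them against means of 11.9 and 2.34 CPM in the other old mice. Il15ra, which presents interleukin 15 to Il2rb, was at 16.1 ± 5.41 CPM (SD, n = 10) in the young and 14.9 ± 2.55 CPM (SD, n = 9) in the old and did not pass (edgeR adjusted p = 0.715).

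Cd4, the coreceptor of helper T cells, averaged 1.83 ± 0.636 CPM (SD, n = 10) in the young and 2.05 ± 3.06 CPM (SD, n = 9) in the old, with 10.1 CPM in mouse 1187 and a mean of 1.04 CPM in the other old mice. It did not pass in either direction (0.06, edgeR adjusted p = 0.948, and -0.81 without mouse 1187, edgeR adjusted p = 0.0686), whereas Cd8a rose in both fits. The difference between Cd4 and Cd8a was not tested. Cd247, the zeta chain of the T cell receptor complex, was at 1.38 ± 0.615 CPM (SD, n = 10) in the young and 1.43 ± 0.379 CPM (SD, n = 9) in the old, with 1.24 CPM in mouse 1187 (edgeR adjusted p = 0.854). Like Zap70 it was not higher in that mouse, and its span in the table overlaps Pou2f1 on the other strand. The source of its reads was not tested. The T cell receptor and immunoglobulin constant genes that were looked for had no entry under those symbols in the deposited table, so they could not be read.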
